A study of Glycine max with 6 samples.

Results

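The regions described here are the sites of the soybean protein GLYMA.13G153200 that were called in every ChIP library and lie in the interior of a chromosome, from 25% to 75% of its length. Peaks of different libraries were linked where they overlapped by at least 50% of the shorter peak, linked peaks formed a region, and a region was shared when all 4 ChIP libraries had a peak in it. The members were thus chosen by peak calls and by position. Of the 11511 shared regions, 2025 had their midpoint in the interior of one of 19 chromosomes, and they were 28.1% of the 7213 interior regions with a peak in any library. In the outer parts of the same chromosomes, the 25% of length at either end, 8579 regions were shared, 29.0% of 29633. The other shared regions were 845 on chromosome 13, left out by the rule, and 62 on scaffolds. Chromosome length was the largest peak end in any list, and coordinates are those of the deposited lists, whose genome build is not given in the sources used here.

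Chromatin came from mid-maturation embryos of Glycine max Williams 82, taken from seeds of 200 to 250 mg fixed for 10 min in 1% formaldehyde and sheared to fragments of 100 to 500 bp. The ChIP groups are antibody 1 and antibody 2, each with 2 biological replicates, raised against 2 peptides of the protein, residues 103 to 117 and residues 275 to 289. Which number stands for which peptide is not in the labels. All groups share cultivar and stage, no sample lacks the protein, and the 2 inputs, total chromatin, have no list of their own. Per the design text the study has 2 biological replicates, so libraries of the same replicate number may share chromatin or input. The lists held 12047 and 27768 peaks for antibody 1 replicates 1 and 2, and 23296 and 36189 for antibody 2 replicates 1 and 2. Read totals are not in the lists, so depth is unknown. Antibody 1 replicate 1 is the shortest list and sets how many regions can be shared: without it, 3447 interior regions were shared by the other 3 libraries.

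The peak lists carry the name ABI5. In Arabidopsis, ABI5 (ABSCISIC ACID INSENSITIVE 5) is a basic leucine zipper (bZIP) transcription factor that acts in the response to abscisic acid, the hormone of seed maturation and dormancy, and binds DNA elements with an ACGT core upstream of genes expressed late in seed development. Soybean chromosomes carry most of their genes towards the ends, while wide stretches around the centromere are poor in genes, rich in repeats and packed as heterochromatin. No gene position, repeat or chromatin state was analysed here, so nothing below says which of these lies at a region.

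Shared regions were sparse in the interiors and present in the interior of all 19 chromosomes. The interior held 4.49 shared regions per Mb (95% exact Poisson interval 4.29 to 4.69) over 451 Mb, and the outer parts held 19 per Mb (18.6 to 19.4) over the same length, a ratio of 4.24. The members were 19.1% of the shared regions of these chromosomes (95% exact binomial interval 18.4 to 19.9). Position chose the members, so these densities are a description and carry no test, and the intervals cover counting error only. Lengths count all sequence, with no correction for gaps or for sequence where reads cannot be placed. A low density of called regions is therefore not a measure of low binding.

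**Figure D1:**
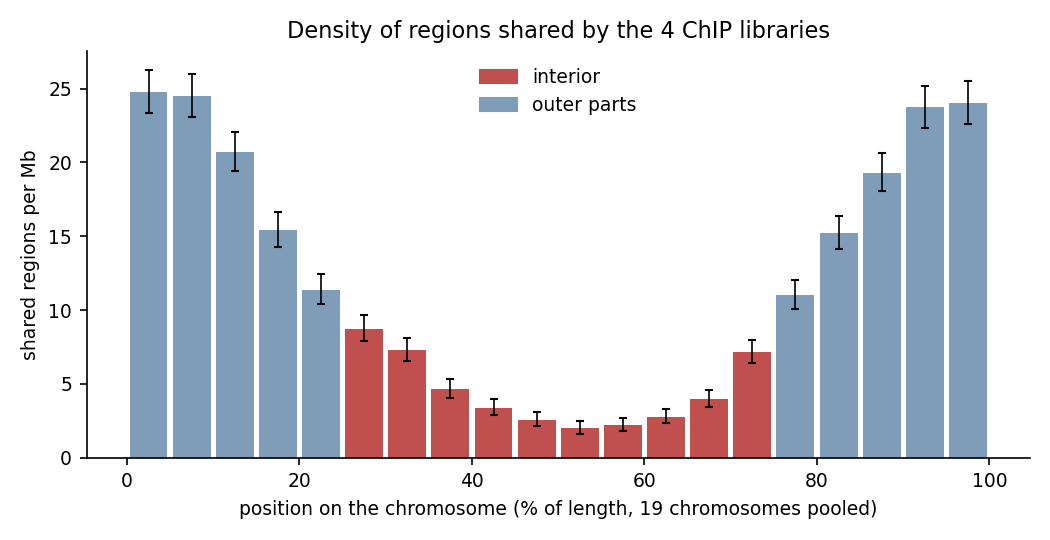
Shared regions per Mb (y) in each 5% of chromosome length (x), pooled over 19 chromosomes, with bars for the interior in red and the outer parts in blue and error bars for 95% exact Poisson intervals. Density fell from 8.76 per Mb at the start of the interior to 2.04 just past the middle and rose to 7.18 at its end.

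Pooled over the chromosomes, the density within the interior formed a trough with its lowest value just past the middle. It was 8.76 per Mb from 25% to 30% of length, 3.39 from 40% to 45%, 2.04 (1.64 to 2.5) from 50% to 55%, and 7.18 from 70% to 75%. The neighbouring values were 2.57 (2.12 to 3.08) from 45% to 50% and 2.19 (1.78 to 2.67) from 55% to 60%. Their intervals overlap that of the lowest value, so its place is not known more finely. The part from 40% to 60% of the length held 460 members. Every one of the 19 chromosomes had some there, from 12 on chromosome 4 to 45 on chromosome 8. The thresholds at 25% and 75% do not fall on a step, since the neighbouring outer parts had 11.4 and 11.1 per Mb.

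Chromosomes differed widely in the share of their shared regions that lay inside. Chromosome 8 had the most members, 212, which were 30.4% of its shared regions (27.0 to 33.9). Chromosomes 6, 17 and 11 followed in number, with 179, 168 and 139 members, or 24.5%, 24.9% and 23.8% of their shared regions. Chromosome 4 had the fewest, 52, or 9.20% (6.95 to 11.9), and chromosome 10 had 67, or 11.6% (9.10 to 14.5). The outer parts were denser than the interior on all 19 chromosomes, from 2.29 times on chromosome 8 to 9.87 times on chromosome 4.

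The members were also placed unevenly about the middle of each chromosome. On chromosome 8, 182 members lay from 25% to 50% of the length and 30 from 50% to 75%. Chromosome 6 had 152 and 27, chromosome 17 had 145 and 23, and chromosome 15 had 87 and 13. The order was turned on chromosome 19, with 14 and 96, on chromosome 20, with 21 and 84, and on chromosome 10, with 10 and 57. On 11 of the 19 chromosomes one side held at least 3 times as many members as the other. Over all of them 1204 members lay before the middle and 821 after it.

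**Figure D2:**
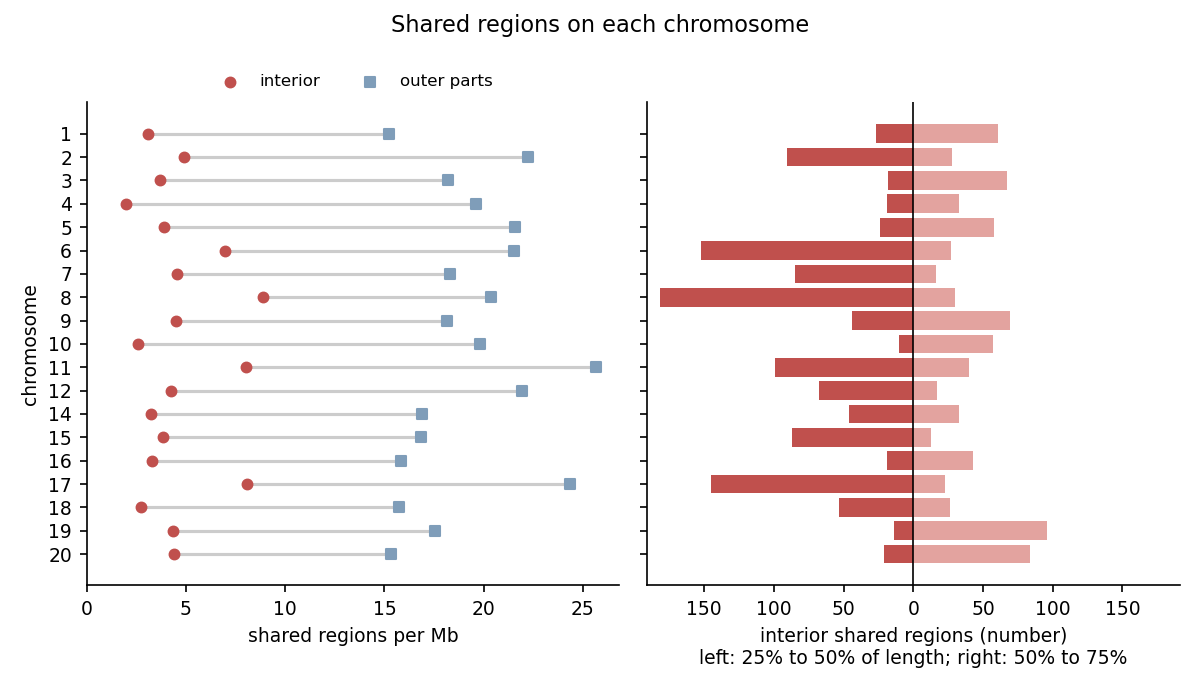
Left, shared regions per Mb (x) in the interior (red circles) and outer parts (blue squares) of each chromosome (y); right, the number of interior shared regions from 25% to 50% of length (bars to the left) and from 50% to 75% (bars to the right). The interior was the sparser part on every chromosome drawn, and chromosomes 8, 6 and 17 had most members before the middle while 19 and 20 had most after it.

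Long stretches of the interior held no shared region. The longest on each chromosome ran from 1.90 Mb on chromosome 6 to 4.83 Mb on chromosome 14, with a median of 3.02 Mb, and the centre of all 19 lay in the interior. The stretch on chromosome 14 ran from 23729920 to 28563651, that on chromosome 19 from 23187423 to 27089662 (3.90 Mb), and that on chromosome 7 from 23449011 to 27068403 (3.62 Mb). These stretches were not empty of peaks, since they held 1 to 23 regions called in fewer than 4 libraries. Of 451 stretches of 1 Mb whose centre lay in the interior, 89 (19.7%) held no shared region, against 7 of 440 (1.59%) outer ones. The median was 2 regions per interior stretch and 19 per outer one. The interior nevertheless reached outer densities in places, with 34 shared regions from 11 to 12 Mb on chromosome 17 and 32 from 15 to 16 Mb on chromosome 2. The Mb from 10 to 11 on chromosome 17 held 42, but it crosses the 25% limit, so not all of these are members.

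Among regions called in all 4 lists, those in the interior were about as strong as those in the outer parts. Sites too weak to be called in every list are in neither set, so their strength is not compared here. Fold enrichment is the authors' ratio of the ChIP signal at the summit, the highest point of the peak, to the background that the caller expected there. In antibody 1 replicate 1 its median was 5.52 in the interior (interquartile range 4.38 to 7.54) and 5.43 outside (4.28 to 7.55). For replicate 2 of antibody 1 the medians were 8.79 (6.61 to 12.5) inside and 8.70 (6.49 to 12) outside. For replicate 1 of antibody 2 they were 7.41 (5.76 to 10.2) and 7.39 (5.72 to 10.2), and for its replicate 2 they were 9.24 (6.90 to 13.1) and 9.17 (6.82 to 12.5). The ranges overlap almost wholly in each library.

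The difference between the medians, interior minus outer, was 0.013 ± 0.008 (SD, n = 4 libraries) on the log2 scale, a ratio of 1.01. By library, in the same order, it was 0.022, 0.016, 0.0025 and 0.011. It was above 0 in 4 of 4 libraries (two-sided exact sign-flip permutation test over libraries, p = 0.13, the smallest that 4 libraries allow). The test takes the 4 libraries as separate, although they come from 2 replicates. When regions were joined again without antibody 1 replicate 1, it was 0.00091. That value is over a larger set, with 3447 interior regions, so it is not the mean of the remaining values above. With all 4 libraries, from 40% to 60% of the length against the same outer parts, it was below 0, at -0.0035 (the same exact permutation test, p = 0.875). By chromosome the sign was mixed. Interior medians were the higher ones in all 4 libraries on 5 chromosomes (7, 8, 10, 15 and 19), the lower ones in all 4 on 4 (3, 6, 12 and 18), and of mixed sign on 10, and the single differences ran from -0.24 (chromosome 18, antibody 2 replicate 2) to 0.24 (chromosome 4, antibody 1 replicate 2) on the log2 scale. For the antibodies, the interior-minus-outer difference averaged 0.019 for antibody 1 and 0.0070 for antibody 2, a difference of -0.012 (two-sided exact permutation test of 2 against 2 libraries, p = 0.33, the smallest possible).

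**Figure D3:**
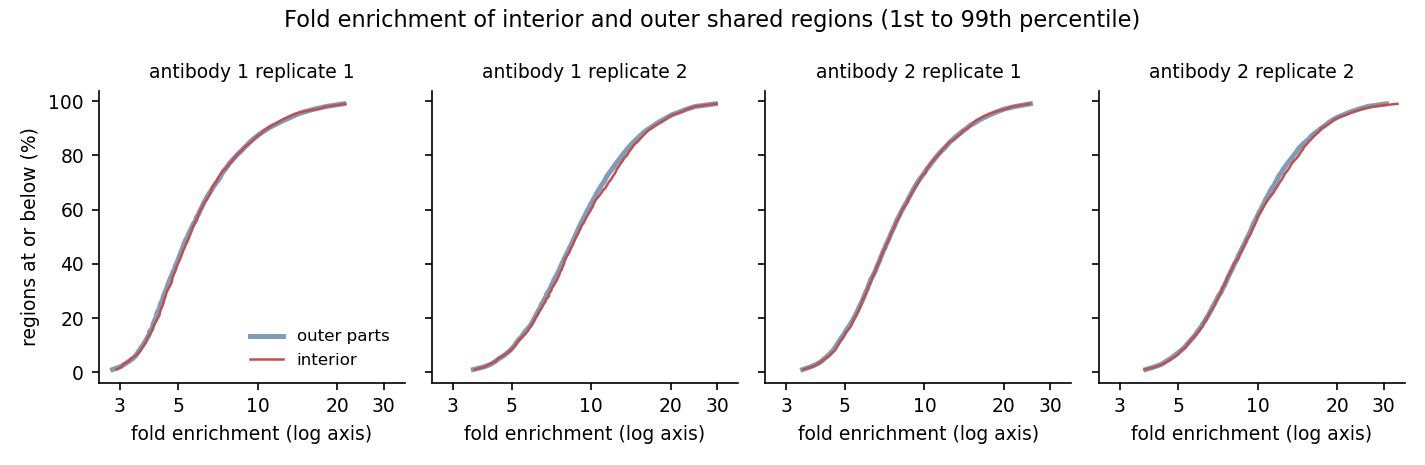
Cumulative share of shared regions (y, percent) by fold enrichment (x, log axis) in each ChIP library, for 2025 interior regions (red) and 8579 outer regions (blue), from the 1st to the 99th percentile. The curves lie on each other in each library, with medians of 5.52 and 5.43 in the weakest (antibody 1 replicate 1) and 9.24 and 9.17 in the strongest (antibody 2 replicate 2).

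The strong end of the range was filled in the interior as well. Members made up 193 of the 1000 strongest shared regions of the 19 chromosomes, which is 19.3%, beside 19.1% of all. Regions were ranked here by the lowest of their 4 percentiles of fold enrichment within the lists. Among the 100 strongest there were 16 members, and among the 20 strongest there were 6. In the replicate 2 lists, 26.7% and 30.1% of the members (antibodies 1 and 2) were in the top 10% of the list, beside 23.5% and 27.4% of the outer regions. In replicate 1 the shares were 10.1% and 19.9% for members and 10.5% and 19.8% for outer regions. The members' share was the larger one in the replicate 2 lists and nearly level in the replicate 1 lists. This difference was not tested.

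The strongest member was also the strongest shared region of the 19 chromosomes, and had their highest fold enrichment in 3 of the 4 libraries. It lies on chromosome 16 at 13050115 to 13051276, at 34.5% of the length. Antibody 1 gave it a fold enrichment of 45.6 (replicate 1) and 63.6 (replicate 2), and antibody 2 gave 37.4 and 66.6. Its 4 summits fell within 32 bp. A neighbouring shared region, 1.62 kb away, closes the longest empty stretch of the chromosome.

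The next 3 in rank were spread over the interior. The region on chromosome 11 at 17933858 to 17934712, at 51.8% of the length, had 28.2 and 36.7 with antibody 1 and 31.8 and 37.5 with antibody 2, and no other shared region within 173 kb. On chromosome 3, at 52.4% of the length, the region at 23958726 to 23959727 had 32.0 and 39.5 with antibody 1 and 27.8 and 38.2 with antibody 2. The region on chromosome 9 at 34666401 to 34667267, at 69.1% of the length, had 31.0 and 40 with antibody 1 and 29.0 and 40.4 with antibody 2. In these 3 regions replicate 2 had the higher value with either antibody, and their summits were at most 15 bp apart across libraries.

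Chromosome 8 held 4 of the 20 strongest members. The region at 21316601 to 21317409 had nearly equal values in all libraries, 33.2 and 32.0 with antibody 1 and 34.0 and 33.8 with antibody 2. Another strong region at 21324723 to 21325347, only 8.12 kb away, had 20.4 and 39.1 with antibody 1 and 26.7 and 34.6 with antibody 2. The region at 20441932 to 20442518 had 23.8 and 39.2, then 25.5 and 33.2, and that at 16773519 to 16774332 had 23.3 and 44.4, then 23.9 and 38.5. The last 3 had higher values in replicate 2 with both antibodies, unlike the first.

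Chromosomes 17, 5 and 7 held several more. On chromosome 17, the site at 12028401 to 12029190 had 23.1 and 42.1 with antibody 1 and 24.5 and 48.8 with antibody 2, and the region at 12565239 to 12566132 had 25.8 and 37.1, then 26.2 and 38.7. On chromosome 5, the site at 24777748 to 24778535 had 25 and 26.5 with antibody 1 and 31.3 and 34.9 with antibody 2. Antibody 2 was the higher one there in either replicate, as it was in 92.6% (replicate 1) and 56.1% (replicate 2) of all members. The other strong regions of chromosome 5 lay at 26240570 to 26241539 and at 28574013 to 28574788, with values from 21.4 to 29.0. On chromosome 7, the site at 15862660 to 15863354 was level across libraries, at 31.7 and 31.1 with antibody 1 and 30.9 and 28.2 with antibody 2, while that at 19202604 to 19203202 had 20.2 and 31.6, then 22.1 and 29.6.

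The remaining 5 of the 20 were on chromosomes 20 (33762815 to 33763450), 2 (13671438 to 13672007), 6 (14419960 to 14421104), 10 (38017571 to 38018255) and 9 (22252584 to 22253151). Over all 20 members and 4 libraries fold enrichment ran from 19.3 to 66.6. The 20 lay on 12 chromosomes and were 568 to 1162 bp wide, and 19 of them had 1 peak in each library. Replicate 2 had the higher value in 17 of the 20 with antibody 1 and in 16 with antibody 2, beside 91.2% and 74.0% of all members. Antibody 2 had the higher value in 16 in replicate 1 and in 10 in replicate 2, beside 92.6% and 56.1% of all members. These counts are thus not particular to the 20.

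**Figure D4:**
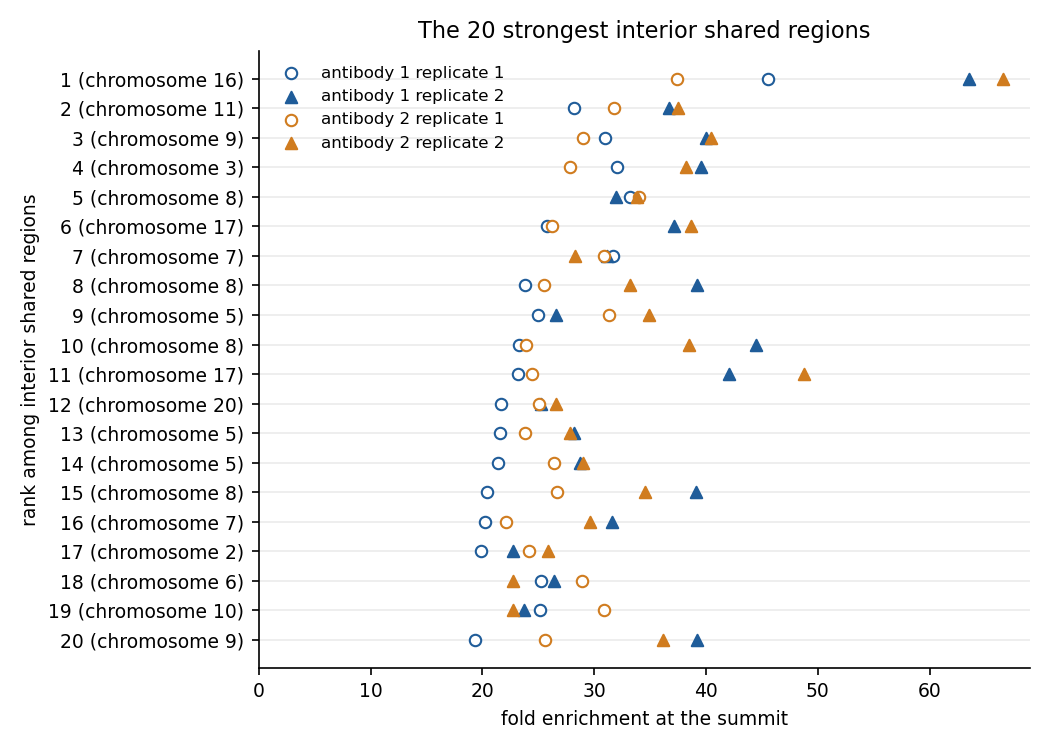
Fold enrichment at the summit (x) in each of the 4 ChIP libraries for the 20 strongest interior shared regions (y, by rank with the chromosome), with open circles for replicate 1, filled triangles for replicate 2, blue for antibody 1 and orange for antibody 2. All values lie between 19.3 and 66.6, and the region on chromosome 16 stands above the others in all 4 libraries.

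Chromosomes without a member among these 20 had best members of lower rank. On chromosome 12 the best, at 13387997 to 13388730, had 24.4 and 21.8 with antibody 1 and 29.1 and 26.0 with antibody 2. On chromosome 14, at 22348741 to 22349432, the best had 13.9 and 21.2 with antibody 1 and 16.5 and 25.5 with antibody 2, and on chromosome 19, at 27701622 to 27702202, it had 15.2 and 20.1, then 17.6 and 18.6. Chromosomes 1, 4, 15 and 18 had their best members at 33253747 to 33254553, 32886333 to 32887640, 24630849 to 24631373 and 19420967 to 19421605, with values from 16.1 to 23.6. The strongest member of each chromosome thus ranged from the 95.15th to the 99.99th percentile in the list where it ranked lowest.

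At the weak end, the member on chromosome 8 at 16177864 to 16178168 had 3.80 and 4.23 with antibody 1 and 3.02 and 4.12 with antibody 2. On chromosome 6, the member at 30990750 to 30991119 had 3.88 and 3.77, then 4.01 and 3.72. These weakest members were called in all 4 libraries with summits 71 and 68 bp apart at most. The lowest value of any member was 2.4 in antibody 1 replicate 1 and 2.96, 2.64 and 2.76 in the other lists, and the lowest of any outer region was 2.16, 2.69, 2.27 and 2.32.

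Strength did not follow depth in the interior closely. Across the 2025 members, Spearman's rho between distance from the chromosome's middle and fold enrichment was 0.0542 and 0.00989 for antibody 1 replicates 1 and 2 and 0.0521 and 0.0107 for antibody 2, as a description over regions that share libraries. The parts on either side of the middle differed in the replicate 2 lists. The 191 members from 50% to 60% of the length had medians of 9.51 and 10.1 in replicate 2 (antibodies 1 and 2), and the 269 from 40% to 50% had 8.42 and 8.57. In replicate 1 the same parts had 5.43 and 7.41, and 5.30 and 7.30. This difference in the replicate 2 lists was chosen after its values were seen and was not tested.

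The 5 members nearest the middle of a chromosome were of mixed strength. On chromosome 16, the site at 18968599 to 18969119 had 7.63 and 19.3 with antibody 1 and 11.3 and 20.2 with antibody 2, and on chromosome 9 that at 25022406 to 25023394 had 10.5 and 15.8, then 13.7 and 16.0. On chromosome 11, the site at 17273830 to 17274343 had 4.27 and 5.26, then 3.62 and 5.09. The other 2 lay 2.96 kb apart on chromosome 6 at 25624454 to 25624808 and 25627344 to 25627953, with values from 3.79 to 8.99. The member on chromosome 9 and the later one on chromosome 6 stand at the edge of the longest empty stretch there.

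The deposited fold enrichment and −log10 p also give back the pileup of fragments at each summit and the local background, assuming the formulas of the caller. The pileup is as it entered the call, scaled down in replicate 1 and unscaled in replicate 2. The replicate 1 values are therefore not counts of fragments, and levels are not compared between libraries. The median pileup at members was 43.8 and 60 with antibody 1 (replicates 1 and 2) and 61.4 and 59 with antibody 2. At outer regions it was 44.7, 59, 61.4 and 58, in the same order. The local background at members, on the scale of the call, was 7.57 ± 1.77, 6.03 ± 1.39, 7.69 ± 1.78 and 5.66 ± 1.34 (mean ± SD over 2023, 2021, 2022 and 2018 members with a solution). At outer regions it was 7.61 ± 1.79, 6.10 ± 1.45, 7.73 ± 1.80 and 5.71 ± 1.37. The background was lower at members in 4 of 4 libraries, by a factor of 0.992 on average, -0.011 ± 0.0034 (SD, n = 4) on the log2 scale (two-sided exact sign-flip permutation test, p = 0.13, the smallest possible). By library, in the same order, the difference was -0.0087, -0.016, -0.0083 and -0.011. Libraries of the same replicate may share an input, so these may not be 4 separate values, although SD and test take them so. The background that entered the calls was thus close to equal in both parts of the chromosomes. These numbers are of called sites and say nothing of background elsewhere.

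Members and outer regions also had nearly the same shape. The median width of a joined region was 466 bp in the interior (interquartile range 394 to 560) and 465 bp outside (398 to 570). The libraries' own peaks had medians of 337, 370, 432 and 384 bp at members and 339, 371, 436 and 384 bp at outer regions, in the order used above. The mean difference was -1.75 ± 1.71 bp (SD, n = 4; two-sided exact sign-flip permutation test, p = 0.25), and it turned to 0.625 bp as the median of the differences within chromosomes. All 4 summits fell inside 100 bp in 1850 members, which is 91.4% (95% exact binomial interval 90 to 92.5), and in 90.9% of the outer regions (90.2 to 91.5). The median distance between the outermost summits was 43 bp in either part.

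A few members were compound. In 47 members, 2.32% (1.71 to 3.07), some library had more than 1 peak, beside 3.09% of the outer regions (2.73 to 3.48). At least 1000 bp were covered by 27 members, 1.33%, beside 1.85% of the outer regions. The widest member, 2086 bp on chromosome 19 at 34804491 to 34806576, had 10.4 and 22.0 with antibody 1 and 13.8 and 22.6 with antibody 2, with summits up to 451 bp apart. The member of most peaks, 10, lay on the same chromosome at 36967397 to 36968758. Wider members were the stronger ones, with a rho of 0.418 to 0.489 between joined width and fold enrichment in the 4 lists, again as a description.

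Members stood farther from one another than outer regions, yet many were in small groups. The median distance from a member's summit to the nearest shared one was 26.7 kb (interquartile range 7.78 to 87.7), and 12.9 kb (4.75 to 29.3) for outer regions, a ratio of 2.07. The parts differed at short range and more so at long range. Within 1 kb of another shared region lay 43 members (2.12%) and 3.94% of the outer regions. Within 2 kb of another shared region lay 186 members (9.19%) and 11.9% of the outer regions, which is 1.30 times the share of members. Beyond 100 kb lay 447 members (22.1%) and 3.44% of the outer regions, so the share among members was 6.42 times as large. Spacing follows from density, which the choice of members fixed, and carries no test.

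**Figure D5:**
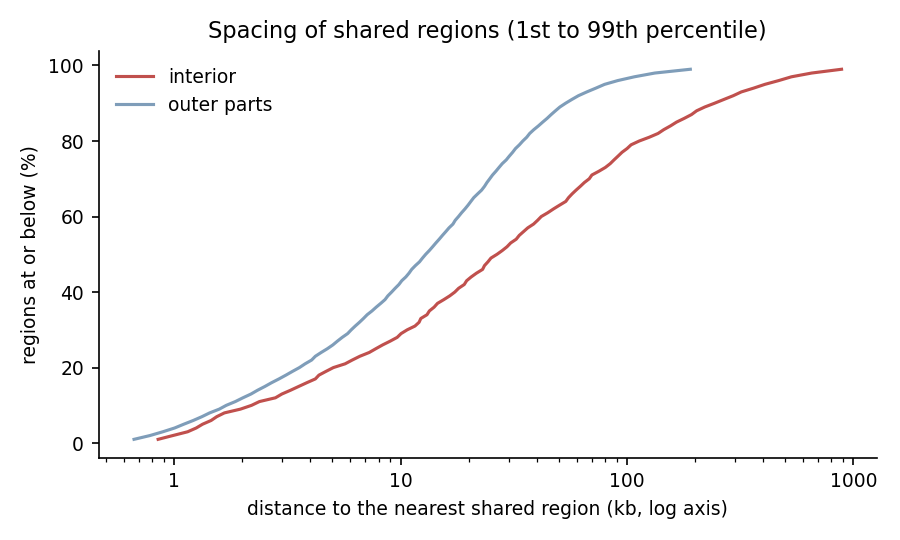
Cumulative share of shared regions (y, percent) by distance to the nearest shared region on the chromosome (x, kb, log axis), for interior (red) and outer regions (blue), from the 1st to the 99th percentile. The curves lie close together at 2 kb, with 9.19% and 11.9%, and far apart at 100 kb, beyond which 22.1% and 3.44% of the regions lie.

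Joining members at most 10 kb apart left 1440 alone (71.1%) and put 585 into 260 groups of 2 to 5. The group of 5 lay on chromosome 17 at 12042677 to 12060715, over 18 kb. At 50 kb, 753 members (37.2%) were alone, and 7 groups held at least 10 members each, 104 in all. The largest held 20 over 346 kb on chromosome 17 at 11740992 to 12087314 and includes the group of 5 and the strong region at 12028401. Next came 17 over 312 kb on chromosome 8 at 14087350 to 14398882, then 16 each on chromosome 17 at 10480925 to 10770545 and on chromosome 2 at 14759944 to 15100388.

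The closest members were pairs of separate peaks. On chromosome 16, summits 0.535 kb apart belong to the regions at 25021245 to 25021804 and 25021858 to 25022284. The first had 12.5 and 21.4 with antibody 1 and 15.0 and 16.6 with antibody 2, and the second had 5.52 and 6.93, then 6.24 and 6.77. On chromosome 15, the regions at 13218540 to 13218926 and 13219121 to 13219596 lay 0.599 kb apart, with 7.03 and 11.6, then 7.93 and 9.51 in the first and 12.4 and 14.6, then 16.0 and 14.0 in the second. In both pairs the same region was the stronger one in all 4 libraries. The other 3 of the 5 closest pairs lay on chromosome 1 at 37363563 to 37364569 and at 26611426 to 26612525, and on chromosome 17 at 12760921 to 12762086. In the pairs on chromosome 1 the same region was again the stronger one in all 4 libraries. In the pair on chromosome 17 the first region was the stronger one except in antibody 2 replicate 1, with 11.3 against 12.6.

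The most isolated members lay more than 1 Mb from any other shared region and were of mixed strength. On chromosome 10, the regions at 16686963 to 16687800 and 20277756 to 20278277 bound the longest empty stretch of that chromosome and lay 2896 and 2443 kb from the nearest other one. The first had 5.38 and 9.63 with antibody 1 and 9.29 and 9.41 with antibody 2, and the second had 2.90 and 7.22, then 6.49 and 5.38. On chromosome 1, the site at 16908572 to 16909824 stood 2836 kb away and was strong, with 13.6 and 17.3, then 16.5 and 14.9. On chromosome 2, the site at 21723954 to 21724756 had 3.68, 7.46 and 7.02 in the first 3 libraries and 19.1 in antibody 2 replicate 2, so 1 library stood apart. The other 6 of the 10 most isolated lay on chromosomes 3, 6, 7, 8, 15 and 19. Each of the 10 had a region called in fewer libraries closer by, from 0.417 kb away on chromosome 7 to 245 kb on chromosome 1.

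Members with a close neighbour had slightly higher values. The 585 members within 10 kb of another shared region had medians of 5.74 and 9.37 with antibody 1 and 7.80 and 9.62 with antibody 2. The 993 members at 10 to 100 kb had 5.48 and 8.55, then 7.23 and 9.08, and the 447 beyond 100 kb had 5.30 and 8.70, then 7.12 and 9.08. Both were below the first class in all 4 libraries. Between them there was no common order, with lower values beyond 100 kb in the replicate 1 libraries, a higher one in antibody 1 replicate 2 and an equal one in antibody 2 replicate 2. The median widths of the 3 classes were 480, 462 and 457 bp. Among outer regions, the 3652 within 10 kb had 5.48 and 8.84, then 7.52 and 9.26. The 4632 outer regions at 10 to 100 kb had 5.35 and 8.55, then 7.31 and 9.07, lower in all 4 libraries. The 295 beyond 100 kb had 5.52 and 8.64, then 7.30 and 8.83, lower than those within 10 kb in 3 of the 4 libraries. This comparison was chosen after the data were seen and was not tested.

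The interior held as broad a mix of shared and less shared regions as the outer parts. The share called in all 4 libraries, 28.1%, stood beside 29.0% outside and 28.8% of all 39947 joined regions. Presence in all 4 chose the members, so nothing more is read from these shares. A further 20.6% of the interior regions had 3 libraries, 20.1% had 2 and 31.2% had 1, beside 20.1%, 19.9% and 31.0% outside. The 1422 interior regions that lacked antibody 1 replicate 1 alone were 19.7% of the interior regions and 19.4% of the outer ones. Peaks of antibody 2 replicate 2 alone made up 22.8% and 22.5%. Each list as a whole put a like share of its peaks on these chromosomes in the interior, 19.2% and 19.6% for antibody 1 replicates 1 and 2 and 19.3% and 19.5% for antibody 2.

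The libraries ranked the members much as they ranked the outer regions. Spearman's rho of fold enrichment between the antibodies was 0.853 in replicate 1 and 0.868 in replicate 2 across members, and 0.858 and 0.866 across outer regions. Between replicates of antibody 1 rho was 0.698 across members and 0.685 outside, and between those of antibody 2 it was 0.722 and 0.721. These are descriptions across regions, which are not replicates. Replicate 2 had the higher fold enrichment in 91.2% of the members with antibody 1 and in 74.0% with antibody 2. Antibody 2 had the higher value in 92.6% in replicate 1 and in 56.1% in replicate 2. Fold enrichment is relative to each library's own background, so levels are not compared between libraries beyond this.

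The values at the thresholds overlapped. Just inside 25%, the member on chromosome 15 at 12933036 to 12933567 had 8.08 and 9.91 with antibody 1 and 9.28 and 11.4 with antibody 2, and the outer region at 12921295 to 12921721 on the same chromosome had 7.18 and 5.19, then 11.2 and 6.23. Just inside 75%, the member on chromosome 16 at 28390501 to 28391121 had 11.8 and 14.0, then 15.5 and 12.6, and the outer region on chromosome 3 at 34327750 to 34328264 had 6.33 and 8.96, then 8.46 and 7.89. Over the 3 regions on each side of each threshold, values ran from 4.43 to 15.5 inside and from 3.89 to 14.1 outside.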

How the data were processed

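The submitters' processing notes name Bowtie 0.12.7, a read aligner, and MACS3, a peak caller, without a version. Genome build and caller options: not given in the sources used here. The deposited names show 1 list per library at a q-value threshold of 0.01. Fold enrichment is the deposited ratio at the summit, significance the deposited −log10 p and −log10 q, and the deposited score, 10 times −log10 q, was not used. Starts were made to count from 1.

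Each library's peak of highest fold enrichment stood for a region. Contrasts are differences of medians within a list (means of log2 for background), tested by exact sign-flips over libraries. These tests and their SDs take the 4 libraries as separate, although they come from 2 replicates. Whole pileups (tolerance 0.02) were recovered after division by 0.973 and 0.749 for antibodies 1 and 2 in replicate 1, and without division in replicate 2. A solution was found for 99.9% of the peaks of each list. Of the solutions, 81.2% and 94.4% were whole in replicate 1 (antibodies 1 and 2), and 100% in both replicate 2 lists. With whole pileups only, the interior-minus-outer difference of background was -0.0138 on the log2 scale. Intervals are 95%, computed on counts of regions, and cover counting error only, since regions are not replicates. Nor do they allow for PCR reads that are not independent molecules. Joining and recovery were tested on simulated data (Python 3.11.15, numpy 2.4.6, pandas 2.3.3, scipy 1.17.1).

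Named regions are the 20 strongest members, the strongest per chromosome, and those nearest the middle, most isolated, closest, weakest or at the thresholds. The widest and the groups were added later. The members and lists were chosen with earlier results of these data known. Motifs and genes were not analysed here, for want of a sequence and annotation in the lists' coordinates.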

Additional observations from a re-analysis of the deposited data

How the results depend on the processing

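The main values were recomputed in 155 alternatives, and 137 kept their direction and side of the threshold, stayed within 1.5 times (counts, distances) or within the interval or spread of the reported value. For fold enrichment, width and background no alternative could change side of the threshold, so only a change of sign counted as a change. The tally thus says little of how steady the size of these differences is. Other limits of the interior gave 1306 members (12.3% of the shared regions, interior over outer density 0.211) for 30% to 70% of length, 3038 (28.6%, 0.268) for 20% to 80%, and 460 (4.34%, 0.134) for 40% to 60% against the outer parts. The last also gave a distance ratio of 4.43, a share in all 4 libraries 2.59 points lower inside (-2.59) and a log2 fold enrichment difference of -0.0035. With chromosome 13 the share was 21.9% and the density ratio 0.280. Leaving out 1 library gave 2046 to 3447 members, the highest without antibody 1 replicate 1, a share of 19.1% to 19.4%, a density ratio of 0.236 to 0.240, a distance ratio of 1.84 to 2.09, and a log2 fold enrichment difference of 0.00091 to 0.0153. The peak width difference, -1.75 bp, became 0.375 bp with lists of equal length, 1 bp for joined regions and 0.625 bp as the median of differences within chromosomes; the cause was not tested. Comparing all peaks of each list, added after seeing the data, gave a mean of 0.0068 for log2 fold enrichment. It was below 0 in antibody 2 replicate 1 (-0.0071) and above 0 in the other lists, at most 0.026 (antibody 1 replicate 1). The replicate block changes only the test, so the antibody difference was bound to stay -0.012 (exact p = 0.5, the smallest possible). Ranking by −log10 q kept 15 of the 20 strongest, and leaving out 1 library 17 to 20. With 4 libraries no sign-flip test can pass 0.05, and how depth limits the calls is not known, since the lists give no read totals. Motif and gene alternatives were not run.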
